A study of Homo sapiens with 6 samples.

Results

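Transcripts of sensors of the unfolded protein response and of regulators of ER stress were followed in MDA-MB-231 cells, an established human triple-negative breast cancer line, after vehicle or YW3-56. The 9 genes were chosen by name as ERN1, XBP1, ATF6, ATF6B, CREB3, CREB3L1, CREB3L2, CREBRF and FICD, and a gene was measured where a probe set of the array carried its symbol and no other. That held for 8 of the 9 genes, each with 1 probe set, out of 18417 genes measured in the series. Both probe sets that list ATF6B also list TNXB, so no value is given for ATF6B. Vehicle (DMSO) was given to 3 cultures, and the other 3 were exposed for 8 h to YW3-56 at 10 µM, a compound known as an inhibitor of peptidylarginine deiminases. The labels call the replicates of each group biological and give no separate time for the vehicle. All values below are the authors' RMA expression values on the log2 scale, so that a difference of 1 is a 2-fold change.

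The endoplasmic reticulum (ER) folds secreted and membrane proteins, and the unfolded protein response adjusts its capacity when unfolded protein accumulates. Its sensors are IRE1, encoded by ERN1, which removes an intron from XBP1 messenger RNA so that an active transcription factor is made; ATF6, which travels to the Golgi and is cut by proteases to free a transcription factor; and PERK, encoded by EIF2AK3, which phosphorylates eIF2alpha. CREB3, CREB3L1 and CREB3L2 are membrane-anchored transcription factors released in the same way as ATF6. CREBRF is a nuclear regulator that binds CREB3 and promotes its loss, and FICD attaches AMP to the ER chaperone BiP and removes it again. Much of this control acts on splicing, cleavage and phosphorylation, none of which an array of transcript levels measures.

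Arrays of 1 group correlated over genes at 0.990 to 0.997, and arrays of different groups at 0.980 to 0.985. The markers VIM, CD44, CAV1, AXL and MSN, known to be high in this mesenchymal line, had mean levels between the 99.48 and 99.69 percentiles of genes. PGR, CDH1 and ESR1, which the line is known to lack, stood at the 8.88, 14.1 and 22.4 percentiles, GATA3 and EPCAM at 35.2 and 39.1, and ERBB2 at 65.5. These ranks are a guide only, since probe sets differ in brightness at equal abundance.

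Sequence upstream of the genes that rose is shown first, because several transcription factors of this response act through short elements close to the transcript start. Windows of 250 bases before to 50 after the start came from RefSeq (GRCh38.p14) and were found for all 9 genes. They were searched on both strands for ERSE (CCAAT and CCACG with any 9 bases between them), the element bound by ATF6 with NF-Y, for ERSE-II (ATTGG and CCACG with any 1 base between them), for UPRE (TGACGTGG), an element used by spliced XBP1, for CARE (TGATGNAAT), used by ATF4, and for CRE (TGACGTCA). UPRE ends in the same letters as the reverse complement of the CCACG end of ERSE, so those short matches can overlap. ERSE was found in 0.0769% of 35116 promoter windows, ERSE-II in 0.0541%, UPRE in 0.729%, CARE in 0.991% and CRE in 1.85%. The 250 bases before the start of the 4 genes that rose are printed 5′ to 3′ along each gene, with full ERSE and CRE matches in capitals.
XBP1, chr22:28800570-28800819, minus strand: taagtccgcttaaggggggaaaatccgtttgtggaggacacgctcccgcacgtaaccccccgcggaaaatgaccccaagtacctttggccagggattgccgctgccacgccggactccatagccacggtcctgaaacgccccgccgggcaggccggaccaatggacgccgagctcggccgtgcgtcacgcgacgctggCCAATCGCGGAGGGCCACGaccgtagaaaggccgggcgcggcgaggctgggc
FICD, chr12:108515027-108515276, plus strand: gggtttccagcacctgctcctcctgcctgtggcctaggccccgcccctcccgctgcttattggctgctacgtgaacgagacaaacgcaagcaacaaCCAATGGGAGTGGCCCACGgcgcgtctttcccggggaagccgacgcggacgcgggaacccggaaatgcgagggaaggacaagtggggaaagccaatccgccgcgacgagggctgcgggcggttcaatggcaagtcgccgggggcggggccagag
CREB3L2, chr7:138002087-138002336, minus strand: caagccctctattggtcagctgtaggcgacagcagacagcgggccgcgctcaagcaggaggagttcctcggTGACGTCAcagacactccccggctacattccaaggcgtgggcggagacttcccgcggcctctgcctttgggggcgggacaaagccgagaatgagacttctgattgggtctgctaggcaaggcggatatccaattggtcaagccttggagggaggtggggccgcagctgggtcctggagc
CREBRF, chr5:173056102-173056351, plus strand: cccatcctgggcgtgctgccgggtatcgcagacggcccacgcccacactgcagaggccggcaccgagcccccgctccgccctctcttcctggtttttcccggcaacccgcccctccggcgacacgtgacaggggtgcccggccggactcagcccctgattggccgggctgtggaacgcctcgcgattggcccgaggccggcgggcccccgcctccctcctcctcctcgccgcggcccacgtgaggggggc

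XBP1 held an ERSE match that began 52 bases before its start, and FICD held one that began 154 bases before its start. CREB3L2 held a CRE beginning 179 bases before its first listed start. CREBRF held none of the 5 elements, nor did the windows of ERN1, ATF6, ATF6B, CREB3 and CREB3L1. XBP1 and CREB3L2 each have a second listed start, and no element was found in those windows. To compare the XBP1 and FICD matches with those of ER chaperones, the 19 bases of each are given with the fixed CCAAT and CCACG ends in capitals, turned where the match lay on the other strand. HSPA5 encodes BiP, and HSP90B1 encodes the ER form of HSP90.
XBP1: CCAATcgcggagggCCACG
FICD: CCAATgggagtggcCCACG
HSPA5: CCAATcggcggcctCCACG
HSP90B1: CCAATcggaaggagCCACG
HSP90B1: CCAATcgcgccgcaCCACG
The middle 9 bases differed among these genes, and only the ends were fixed by the search. A match describes these letters and does not show binding.

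**Figure D1:**
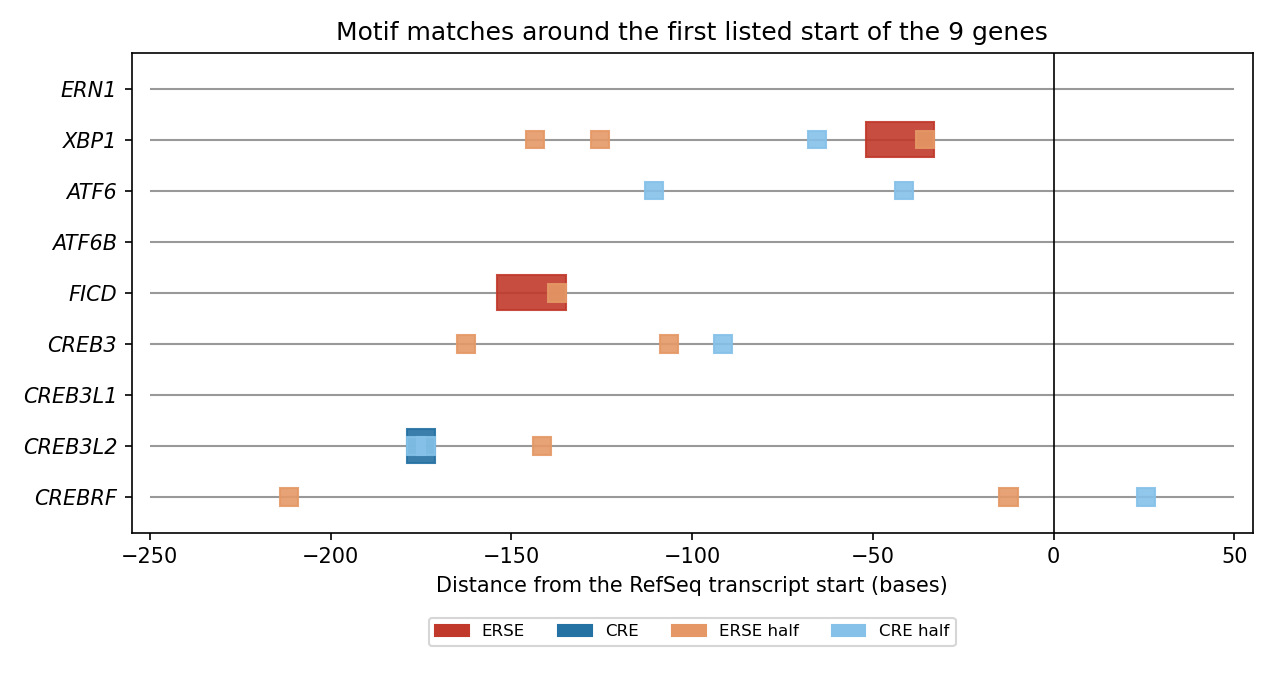
Positions of ERSE and CRE matches, and of shorter matches to an end of either element, in the window around the first listed start of the 9 genes; the x axis is the distance from the start in bases. XBP1 and FICD hold ERSE matches beginning 52 and 154 bases before the start, and CREB3L2 holds a CRE beginning 179 bases before it.

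Among the sensors and the transcript that IRE1 acts on, XBP1 rose and the messages of ERN1 and ATF6 did not pass the test. XBP1 read 10.20, 10.49 and 10.92 in DMSO replicates 1, 2 and 3, and 11.74, 11.79 and 11.83 in YW3-56. The 3 treated cultures were close together and all above the vehicle cultures, which were spread over a wide range. XBP1 was 2.38-fold higher (log2 difference 1.25 ± 0.16 SE, n = 3 per group, limma adjusted p = 0.00134). The SD of XBP1 was 0.36 in DMSO, at the 98.25 percentile of genes, and 0.05 in YW3-56, at the 18.9 percentile. The size of the rise therefore depended on the vehicle array used, and same-numbered arrays differed by 1.54, 1.30 and 0.91. It ran from 1.08 to 1.44 over the processing alternatives and passed in each. The table gives a single level for XBP1 and does not separate spliced from unspliced message.

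ERN1, the gene of IRE1 itself, read 8.81, 8.98 and 8.94 in DMSO and 9.06, 8.96 and 9.06 in YW3-56. The groups overlapped, with YW3-56 replicate 2 below DMSO replicate 2. The log2 difference was 0.12 with a 95% interval from -0.06 to 0.30 (limma adjusted p = 0.371, n = 3 per group). ATF6 read 11.54, 11.56 and 11.40 in DMSO and 11.54, 11.59 and 11.48 in YW3-56, values that overlapped almost fully. Its difference was 0.03, with an interval from -0.14 to 0.21 (limma adjusted p = 0.827, n = 3 per group). The intervals, from limma and for 1 gene at a time, reach rises of 0.30 in ERN1 and 0.21 in ATF6.

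EIF2AK3, the gene of the third sensor PERK, was higher in every treated culture. It read 8.64, 8.32 and 8.57 in DMSO and 10.07, 9.89 and 10.08 in YW3-56. The groups were far apart, and the rise was 2.83-fold (1.50 ± 0.10 SE, n = 3 per group, limma adjusted p = 0.000122). Its 95% interval, from 1.26 to 1.74, did not overlap those of ERN1 and ATF6, although the difference between the genes was not itself tested.

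**Figure D2:**
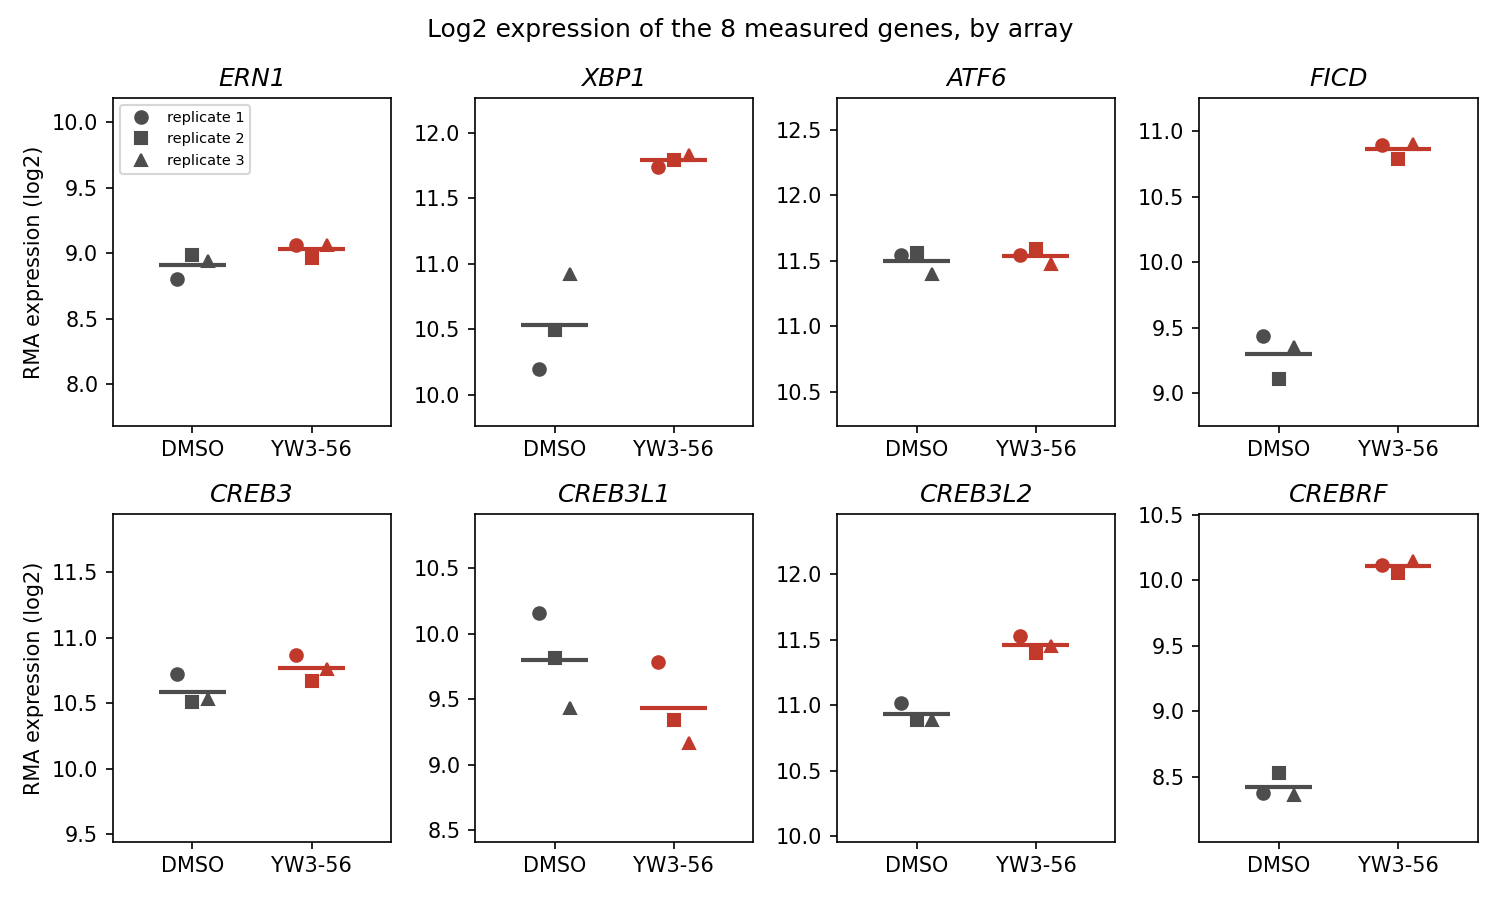
Log2 expression of the 8 measured genes in each array (y axis, log2 units; all panels span the same range), with DMSO in grey, YW3-56 in red, symbols for replicate numbers and lines at group means. XBP1, FICD, CREB3L2 and CREBRF separate by group, XBP1 in DMSO spreads from 10.20 to 10.92, and CREB3L1 falls within each replicate number while its groups overlap.

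FICD, the enzyme that inactivates BiP by AMPylation and reactivates it, had the second largest rise of the 8 genes. It read 9.44, 9.11 and 9.35 in DMSO and 10.90, 10.79 and 10.90 in YW3-56. The lowest treated value lay 1.35 above the highest vehicle value. FICD was 2.95-fold higher (1.56 ± 0.10 SE, n = 3 per group, limma adjusted p = 9.61e-05), and its difference ran from 1.47 to 1.69 over the alternatives.

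Of the 3 CREB3-type factors, CREB3L2 passed the test and CREB3 and CREB3L1 did not; differences between these genes were not tested. CREB3L2, which drives genes of ER-to-Golgi transport in secretory cells, read 11.02, 10.88 and 10.89 in DMSO and 11.53, 11.40 and 11.45 in YW3-56. The groups did not overlap, and same-numbered arrays differed by 0.51, 0.52 and 0.56. CREB3L2 was 1.44-fold higher (0.53 ± 0.08 SE, n = 3 per group, limma adjusted p = 0.00221).

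CREB3, the founding factor of the family, read 10.72, 10.51 and 10.53 in DMSO and 10.87, 10.67 and 10.76 in YW3-56. DMSO replicate 1 lay above YW3-56 replicate 2, so the groups overlapped, while same-numbered arrays differed by 0.15, 0.16 and 0.23. The difference was 0.18, with an interval from -0.03 to 0.39 (limma adjusted p = 0.217, n = 3 per group). With replicate number as a block the adjusted p was 0.0878. With array weights, which counted DMSO replicate 2 at 2.94 and DMSO replicate 1 at 0.33, the difference was 0.22 and the adjusted p was 0.035.

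CREB3L1, a factor known for collagen and bone matrix secretion, read 10.16, 9.82 and 9.43 in DMSO and 9.79, 9.34 and 9.17 in YW3-56. The spread within each group was wide, at the 98.22 and 98.98 percentiles of SD among genes, and the groups overlapped. The difference was -0.37, with an interval from -0.84 to 0.10 (limma adjusted p = 0.276, n = 3 per group). Within the replicate numbers it was lower in YW3-56 each time, by differences of -0.37, -0.47 and -0.26. With replicate number as a block in the limma fit the difference passed (-0.37 ± 0.07 SE, adjusted p = 0.0124, n = 3 pairs).

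CREBRF, the regulator that promotes loss of CREB3 protein, had the largest difference of the 8 genes. It read 8.38, 8.53 and 8.36 in DMSO and 10.11, 10.06 and 10.15 in YW3-56. Both groups were tight, and a gap of 1.53 separated them. CREBRF was 3.22-fold higher (1.69 ± 0.08 SE, n = 3 per group, limma adjusted p = 2.28e-05). The regulator rose, while the message of CREB3 itself did not pass the test.

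**Figure D3:**
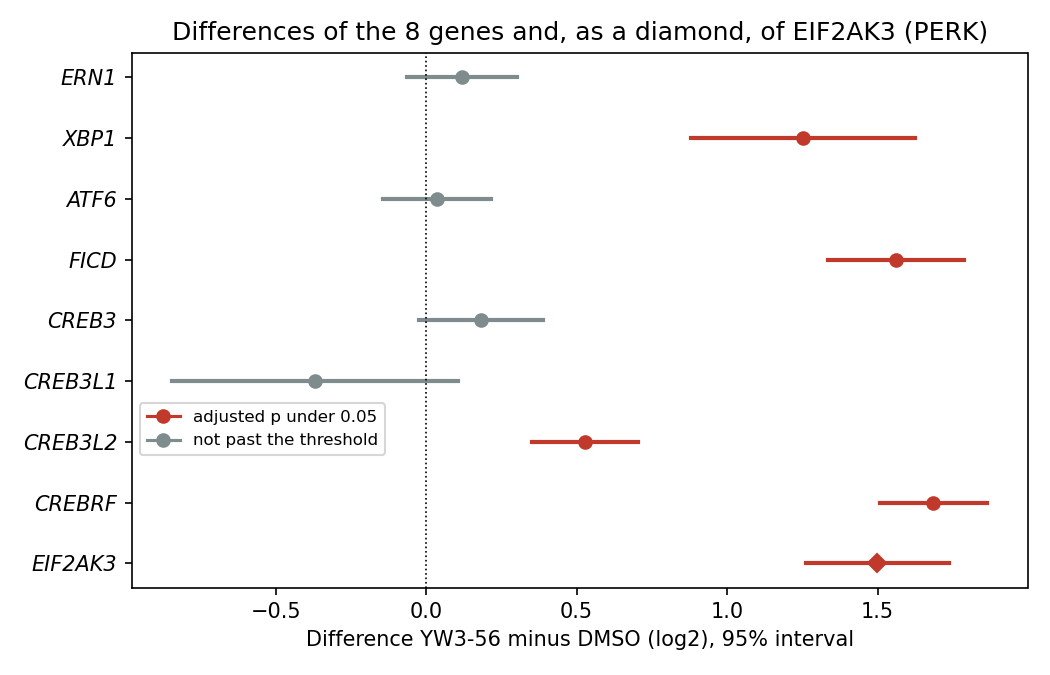
Difference between YW3-56 and DMSO (x axis, log2) with the 95% interval from limma for the 8 genes and, as a diamond, for EIF2AK3; red marks an adjusted p under 0.05. CREBRF, FICD, XBP1 and CREB3L2 lie to the right of 0 at 1.69, 1.56, 1.25 and 0.53, while the intervals of ERN1, ATF6, CREB3 and CREB3L1 include 0.

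Of the 8 measured genes, 4 were called higher at an adjusted p under 0.05 and 0 were called lower, and the 4 with groups that did not overlap were the same genes. Over all 18417 genes, limma called 9.84% higher and 11.5% lower, and 21.4% in either direction. Rises outnumbered falls once arrays were centred on their medians (1691 against 1432) or quantile-normalized again (2114 against 2025). The treated arrays lay above the vehicle arrays in 15.5% of genes, below them in 21.4%, and on either side in 36.9%. The median difference was 0.36 over the 8 genes and -0.05 over all genes. The array weights raised the count to 5 higher, by CREB3, and the replicate block gave 4 higher and 1 lower, by CREB3L1.

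The genes whose values over the 6 arrays lay nearest to those of CREBRF and FICD were sought after subtracting each gene's DMSO mean. Nearest to CREBRF were MXD1, a partner of MAX that opposes MYC, at a root mean square difference of 0.09 on the log2 scale, TSPYL2 at 0.10 and the transcriptional repressor HBP1 at 0.11. Their own differences were 1.70, 1.61 and 1.60. Nearest to FICD was EIF2AK3 at 0.05, followed by the histone demethylase KDM3A at 0.10 and the nuclear receptor coactivator PNRC1 at 0.11. EIF2AK3 and FICD were both lowest in replicate 2 of each group. So were CREB3, CREB3L2, PDIA6 and SRPRB, and the order was therefore not particular to EIF2AK3 and FICD. Nearness to CREBRF or FICD is a description over 6 arrays in 2 groups, and the group difference makes up most of it.

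**Figure D4:**
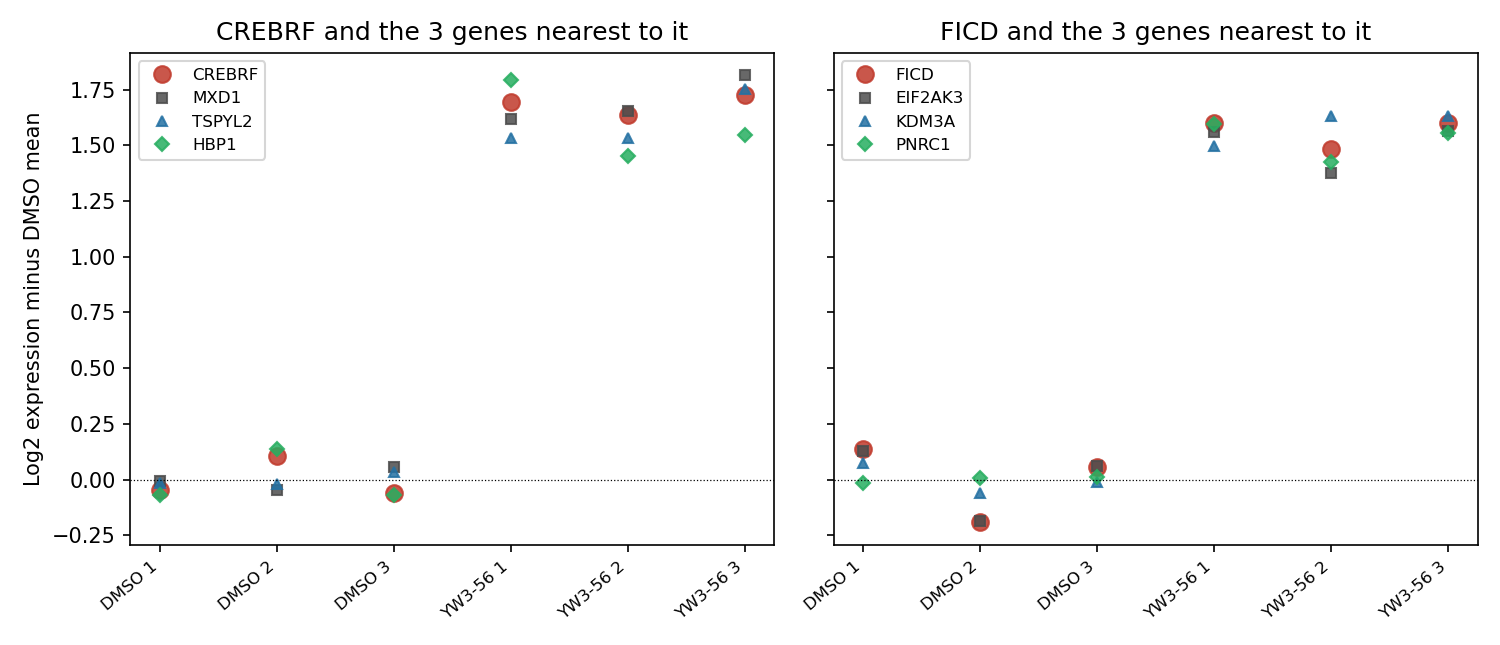
Log2 expression minus the gene's own DMSO mean (y axis) in each of the 6 arrays (x axis) for CREBRF and FICD, each with the 3 genes nearest to it. EIF2AK3, picked for its nearness over these same arrays, follows FICD at a root mean square difference of 0.05. Both are lowest in replicate 2 of each group, an order that other genes such as CREB3L2 and SRPRB share.

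Other genes of the pathway were grouped by their part in it, in lists chosen with earlier results of these data known. Counts in these lists stand beside 9.84% of all genes called higher and 11.5% called lower. In the PERK arm 5 of 8 genes were higher and 1 was lower (median 0.86). Beside EIF2AK3, the stress factor DDIT3 differed by 3.36, the pseudokinase TRIB3 by 1.97, and PPP1R15A, which directs dephosphorylation of eIF2alpha, by 1.23. The lower gene was EIF2S1, the gene of eIF2alpha (-0.29, limma adjusted p = 0.0314). Its call was lost in 7 of 14 alternatives, with adjusted p from 0.054 to 0.141; the arrays whose removal ended it were DMSO replicates 1 (0.0548) and 2 (0.0776) and YW3-56 replicates 1 (0.07), 2 (0.125) and 3 (0.0773). With replicate number as a block PPP1R15B, a relative of PPP1R15A, was called higher as well (0.23, adjusted p = 0.0467). It was also called after quantile normalization again (0.0291), the filter on dim genes (0.039), another variance model (0.0109) and array weights (0.0157). ATF4 is counted among the 5 with an adjusted p of 0.0418, and its call was lost in 6 of the alternatives, among them removal of DMSO replicate 2 (0.0814) and of YW3-56 replicates 1 (0.104), 2 (0.0884) and 3 (0.142). The 2 probe sets of ATF4 went opposite ways, the brighter by 0.49 and the other by -0.54 (limma adjusted p over probe sets 0.0429 and 0.00611), and their mean differed by -0.02, so no direction is given for ATF4. The median of 0.86 rests in part on the brighter ATF4 probe set. With probe set means 4 genes of the PERK arm were higher and 1 was lower.

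Among 11 measured partners and regulators of IRE1, 3 were higher and 1 was lower (median 0.02). The higher ones bind or restrain IRE1 on the ER side, namely the co-chaperone DNAJB9 (2.23 ± 0.09 SE), BiP itself (HSPA5, 1.20 ± 0.08) and the disulfide isomerase PDIA6 (0.45 ± 0.09). These genes are counted again below, DNAJB9 and PDIA6 among the XBP1 targets and HSPA5 among the ATF6 targets. RTCB, the ligase that joins the XBP1 exons, differed by -0.07 and did not pass, nor did the phosphatase gene PTPN1 (0.02) or TMBIM6 (-0.02). ZBTB8OS, the archease that assists RTCB, was lower (-0.38, limma adjusted p = 0.0414). That call was lost in 7 of 14 alternatives, with adjusted p up to 0.144. It was lost without DMSO replicate 1 (0.0521) or 2 (0.0656), and without YW3-56 replicate 1 (0.068), 2 (0.144) or 3 (0.108). TRAF2 had no probe set with its symbol alone.

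Genes known as XBP1 targets were higher in 9 of 15 cases and lower in 0 (median 0.45). Beside DNAJB9 the largest differences were those of DNAJC3, an inhibitor of PERK (1.43 ± 0.10 SE), SEC24D, a coat protein of ER export (0.78 ± 0.08), and EDEM1, which routes misfolded glycoproteins to degradation (0.75 ± 0.09). SEC61B (-0.08), SRPRB (-0.03) and SSR1 (-0.12), which serve protein entry into the ER, did not pass. The count fell to 8 without DMSO replicate 2 and without YW3-56 replicate 2 or 3, each time by EDEM2, whose adjusted p was then 0.0808, 0.0814 and 0.0663. It rose to 10 by LMAN1 after quantile normalization again (adjusted p = 0.0498) and with another variance model (0.022). With array weights it rose to 10 by EDEM3 (0.017). Of 5 measured substrates of IRE1-dependent decay, messages that IRE1 is known to cut (BLOC1S1, a further one, had no probe set of its own), 0 were lower and 1 was higher, the lysosomal gene HGSNAT (0.38, limma adjusted p = 0.0316). The HGSNAT call was lost in 7 of 14 alternatives, with adjusted p from 0.0532 to 0.116. It held among the removals only without DMSO replicate 1, and the adjusted p was 0.104 and 0.0861 without DMSO replicates 2 and 3, and 0.107, 0.0723 and 0.0694 without YW3-56 replicates 1, 2 and 3. SPARC, a matrix protein gene, differed by -0.27 and was called lower with the replicate block (adjusted p = 0.0345) and with array weights (adjusted p = 0.0438). The mean levels of SPARC and of PDGFRB, a further substrate that did not pass, ranked at the 37.8 and 34.5 percentiles of genes. That is near the low markers GATA3 (35.2) and EPCAM (39.1), where a fall would be hard to see.

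All 12 genes of the ATF6 target list were higher, with a median of 0.85, where 9.84% of all genes were called higher. This list too was chosen with earlier results of these data known. A gene listed under ATF6 may also respond to other factors, and which factor acted was not tested. HERPUD1, part of the degradation complex, led with 1.71 ± 0.17 SE, followed by the isomerase PDIA4 (1.21 ± 0.10), HSPA5 and SEL1L, the partner of the ligase SYVN1 (1.12 ± 0.11). The smallest difference was that of DERL3 (0.34, limma adjusted p = 0.0459), which lost its call in 8 of 14 alternatives, including the replicate block (0.0647) and the removal of any single array (0.0553 to 0.142); the other 11 were called in each. In 11 of the 12 genes a promoter window was available, and 7 held ERSE or ERSE-II. Of 9 genes that process ATF6 or act with it, 2 were higher and 1 was lower (median 0.05). NUCB1, a Golgi protein known to hold back ATF6 cleavage, rose by 0.86 ± 0.08 and itself has an ERSE-II match 69 bases before its start, and NFYB, a subunit of NF-Y, rose by 0.43 ± 0.08. The mean level of NFYB ranked at the 41.9 percentile of genes, near the low marker EPCAM (39.1). NFYA, another subunit, was lower (-0.33, limma adjusted p = 0.0252), a call lost on centring of each array (0.098), in a limma fit that shares no variance between genes (the per-gene test, 0.0648), and without YW3-56 replicate 1 (0.0715), 2 (0.0943) or 3 (0.0721). The proteases that cut ATF6, MBTPS1 (-0.14) and MBTPS2 (0.02), did not pass.

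CREB3L4, a further factor of the CREB3 family, was higher (0.58 ± 0.11 SE, limma adjusted p = 0.00833), a call lost in the per-gene test (0.0656). CREB3L3, mainly of liver, did not pass (-0.26), except without DMSO replicate 1 (-0.40, adjusted p = 0.0378). HCFC1, a nuclear cofactor that binds CREB3, was lower (-0.42, limma adjusted p = 0.0305). The HCFC1 call was lost in 5 of 14 alternatives, among them the removal of DMSO replicate 2 (0.086) and of YW3-56 replicate 2 (0.11) or 3 (0.126). Of 6 genes known as targets of CREB3-type factors, 2 were higher and 0 lower (median 0.16). They were SEC24D, which is on the XBP1 list too, and the cell cycle inhibitor CDKN1A (0.49 ± 0.13, limma adjusted p = 0.0275). The CDKN1A call was lost in the per-gene test (0.134), without DMSO replicate 2 (0.106) and without YW3-56 replicate 2 (0.0846) or 3 (0.0944). Without DMSO replicate 3, COL1A1, a collagen gene, was called in addition (0.40, adjusted p = 0.0183), and so it was with array weights (0.28, adjusted p = 0.0339). ARF4 (0.05) and SEC23A (0.03), which serve Golgi traffic, did not pass.

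**Figure D5:**
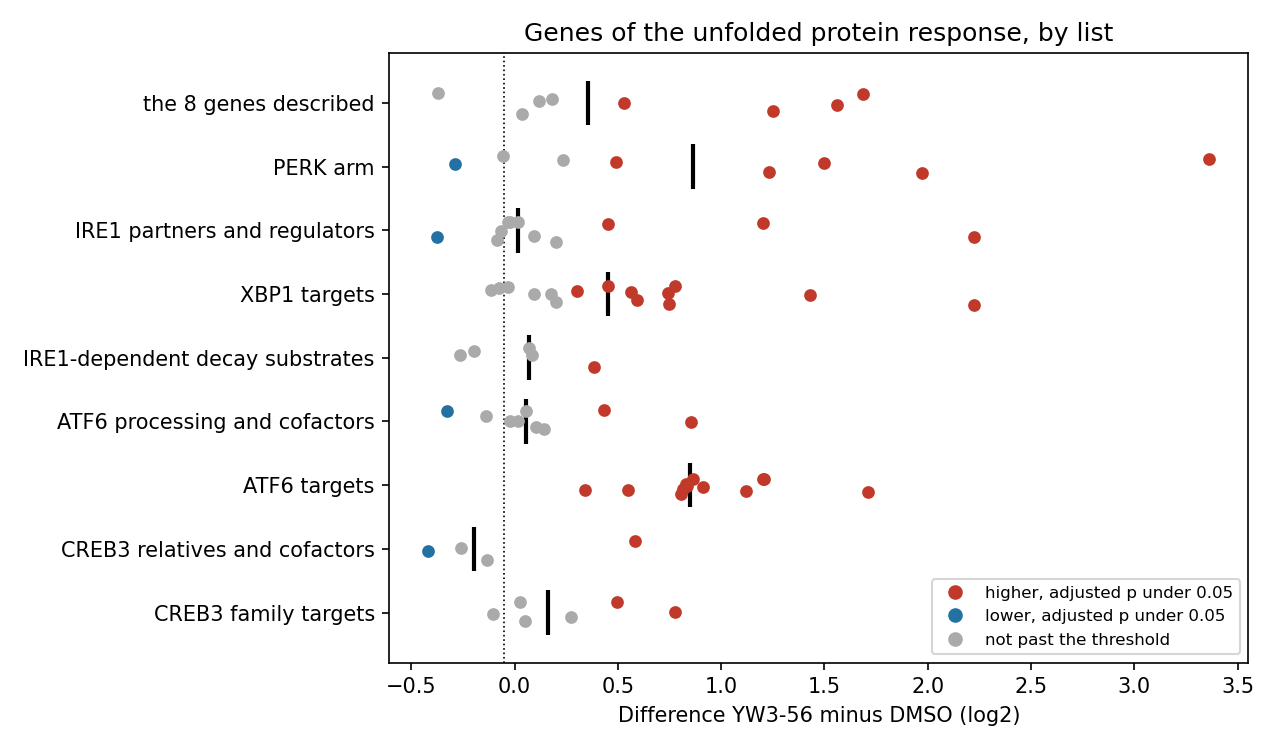
Difference between YW3-56 and DMSO (x axis, log2) of each measured gene in the lists described, with black bars at list medians and a dotted line at the median of all genes (-0.05). All 12 ATF6 targets lie to the right at a median of 0.85, whereas the partners of IRE1 and the genes that process ATF6 centre at 0.02 and 0.05. The lists were chosen with earlier results of these data known.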

How the data were processed

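Total RNA of 6 cultures was measured on Affymetrix arrays. The authors deposited log2 expression values made with RMA and the affy package, per the submitters' processing notes; versions and the annotation's genome build were not given in the sources used here. Usually RMA includes a step that equalises probe intensities between arrays, which would hide a general rise or fall of RNA; the deposited array medians still ran from 7.55 to 7.74. Arrays carry no read depth, and their number limits the precision.

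Genes were named from the platform annotation, which can be old. Of 33297 probe sets, 19460 list 1 symbol, 1754 several and 12083 none; the brightest single-symbol probe set by its mean over 6 arrays stood for a gene. YW3-56 was compared with DMSO by limma 3.58.1 in R 4.3.3 (lmFit and eBayes, group as the only term, 4 residual and 4.17 prior degrees of freedom). Tests were two-sided with Benjamini-Hochberg adjustment over 18417 genes and a threshold of 0.05. The code was tested on simulated data. P-values set the group difference against the spread between these cultures, with the variance partly shared between genes.

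Deviations from group means correlated at 0.539, 0.37 and 0.102 between arrays numbered 1, 2 and 3. The main calls come from the fit without pairs, and the numbers in the labels served as pairs only in the blocked fit. Pairing by number is uncertain, since YW3-56 replicate 2 correlated better with DMSO replicate 3 (0.416). The blocked fit is given where it changed a call. Alternatives were that block, further scaling, a filter on dim genes, probe set means, other variance models, array weights and removal of each array.

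The genes and lists were chosen with earlier results of these data known. The text names all 9 genes, up to 4 called genes per list with the largest change (or the largest change where none was called), and 3 genes nearest to each of the 2 called members with the largest change. ATF4, DERL3, EDEM2, EDEM3, LMAN1, EIF2S1, PPP1R15B, COL1A1, SPARC and genes given as not passing were added after their values were seen.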

Additional observations from a re-analysis of the deposited data

How the results depend on the processing

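The calls of XBP1, FICD, CREB3L2 and CREBRF kept their direction and stayed past the threshold in each of 14 alternatives. Over the 8 genes, 108 of the values under alternatives kept direction and call, and 2 passed in addition, CREB3 with array weights and CREB3L1 with the replicate block. ATF6, near 0, changed sign to -0.0081 with array weights and to -0.017 without DMSO replicate 3; with 1 array left out its difference ran from -0.017 to 0.0638. The count of the 8 genes called lower was 1 with the replicate block, which changed none of the other 7 calls; among the genes of the lists it changed those of DERL3, PPP1R15B, SPARC and the marker EPCAM. With any 1 array left out, the counts of these genes stayed at 4 higher and 0 lower. Over all genes, 1158 to 2084 were called higher and 1206 to 2605 lower with 1 array left out, the lowest both without YW3-56 replicate 3. The falls also dropped to 1309 without YW3-56 replicate 2. Array weights called 3432 genes lower; they were estimated gene by gene, since the default method did not reach its tolerance. The causes were not tested. Of the other genes named by rule, 265 values under alternatives kept their call and 29 lost it, and all kept their direction.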

Other observations

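ERSE was searched in all promoter windows, and 25 genes held it, of which 19 were measured. Of these 19, 10 were called higher and 0 lower by limma, with a median difference of 0.39, where 9.84% of all genes were called higher. Beside XBP1 and FICD they were HSPA5, HSP90B1, CALR, CRELD2, PDIA6, ERO1B, ALG12 and TRIM5, named after their values were seen. ERO1B, an oxidase that supplies disulfide bonds, differed by 1.49 ± 0.12 SE (n = 3 per group, limma adjusted p = 0.000244). ALG12, a mannosyltransferase of the ER, differed by 0.39 and TRIM5, an antiviral factor, by 0.45. The chaperone gene CANX (0.13) and SERP1 (0.27), a protein of the translocation channel, held the element and did not pass.

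For the other elements the counts were as follows, and differences between elements were not tested. Over all genes 9.84% were called higher and 11.5% lower. Of 17 measured genes with ERSE-II, 6 were higher and 2 lower, with a median of -0.01. Of 159 with UPRE, 29 were higher and 16 lower (median 0.02), and of 127 with CARE, 16 were higher and 6 lower (median -0.03). Of 442 with CRE, 68 were higher and 61 lower (median -0.04). These are counts in windows of fixed length, and elements farther from the start, in introns or spelled differently were not searched.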
